A study of Homo sapiens with 8 samples.

Results

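Endoplasmic reticulum (ER) chaperones and quality control were followed through 38 genes of the 55679 listed in the deposited count table. The genes were chosen by name as parts of the ER stress response, and comprised 4 sensors or their transcription factor (ATF6, ERN1, EIF2AK3 and XBP1), 19 genes of protein folding, 11 of degradation and 4 of protein entry or export. All 38 were found, and 37 averaged 1 CPM (counts per 1000000 counts on genes) or more over the libraries. DERL3, a derlin of the degradation machinery, had from 14 to 58 counts per library and was the exception.

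Proteins that enter the ER are folded by chaperones such as BiP (HSPA5) and GRP94 (HSP90B1), joined by disulfide bonds through protein disulfide isomerases, and checked by the lectins calnexin and calreticulin. Proteins that fail to fold are sent back to the cytosol and degraded. When unfolded proteins accumulate or ER calcium falls, the membrane sensors IRE1 (ERN1), PERK (EIF2AK3) and ATF6 start the unfolded protein response, in which spliced XBP1 and cleaved ATF6 raise transcription of chaperones and PERK slows translation and favours ATF4.

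The study asked how triple-negative breast cancer cells respond to Acetalax (oxyphenisatin acetate, a former laxative) and how cells that tolerate it differ. The established triple-negative lines MDA-MB468 and BT549 gave 8 libraries of polyadenylated RNA, 1 per condition. Parental and chronically exposed (CE) cells of each line were sampled untreated and 6 hours after addition of 1 μmol/L Acetalax. CE cells had been passaged in rising concentrations up to 40 μmol/L, were kept free of drug for 2 weeks before use and are described as resistant clones, so the exposure and the selected clone cannot be told apart.

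Totals on genes ran from 42261122 to 54241728 counts per library, a 1.28-fold range. The 5 epithelial markers summed to 3550 to 5930 CPM in MDA-MB468 and 5.56 to 83.4 CPM in BT549, and the 4 mesenchymal markers to 15.6 to 55.7 CPM in MDA-MB468 and 3480 to 4960 CPM in BT549. Of 3 receptor genes checked, PGR stayed below 1 CPM in every library, ESR1 had 3.5 to 5.15 CPM in MDA-MB468 and below 1 CPM in BT549, and ERBB2 had 41.2 to 95.2 CPM. Markers of blood, liver and immune cells summed to less than 1 CPM in every library. In bulk RNA, fewer cells of a kind and less RNA per cell cannot be told apart, and gene counts do not separate spliced from unspliced XBP1 RNA.

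Several of these genes share a short promoter element, and their sequences are shown first because the results below return to them. The ER stress element (ERSE) was searched as CCAAT, 9 free bases, CCACG, and ERSE-II as ATTGG, 1 free base, CCACG, on both strands of the RefSeq promoters (GRCh38.p14, 250 bases before to 50 after each start). Promoters were matched for 34 of the 38 genes, but not for DERL1, DERL3, PDIA3 and SEC24D. An ERSE was found in 9 of the 34 genes (26.5%) against 25 of 27305 genes (0.0916%), and an ERSE-II in 3 (8.82%) against 19 (0.0696%). None of the 12 genes held both kinds. The CCACG that both elements contain was present in 76.5% of the 34 genes and 42.1% of all genes. The 38 genes were picked as parts of the ER stress response, for which the element is named. The excess over all genes is therefore no finding of these data. Of 32 other genes with an element, 0 were in the lists of further pathway genes used below, matched by symbol. A match describes these letters in this window and is not proof of binding. The 250 bases before the start of HSPA5 (chr9:125241344-125241593, minus strand) carry 1 ERSE, in capitals:
HSPA5: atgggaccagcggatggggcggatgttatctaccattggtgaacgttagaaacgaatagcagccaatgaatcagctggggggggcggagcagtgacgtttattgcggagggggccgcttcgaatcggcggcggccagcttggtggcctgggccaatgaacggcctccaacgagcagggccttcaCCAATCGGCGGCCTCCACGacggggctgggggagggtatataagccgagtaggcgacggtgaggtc

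The ERSE windows of the other genes that hold one are given with up to 12 flanking bases, the element in capitals, on the strand on which it reads CCAAT first:
HSP90B1, first site: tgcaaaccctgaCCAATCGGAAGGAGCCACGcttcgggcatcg
HSP90B1, second site: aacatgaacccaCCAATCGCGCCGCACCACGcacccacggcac
CALR: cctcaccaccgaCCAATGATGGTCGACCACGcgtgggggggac
PDIA6: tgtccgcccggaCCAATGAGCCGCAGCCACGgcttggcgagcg
CRELD2: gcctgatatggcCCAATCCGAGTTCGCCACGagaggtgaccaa
XBP1: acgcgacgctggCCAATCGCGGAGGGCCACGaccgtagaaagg
CANX: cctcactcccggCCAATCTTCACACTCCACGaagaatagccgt
SERP1: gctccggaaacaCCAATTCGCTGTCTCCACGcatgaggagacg
ERO1LB: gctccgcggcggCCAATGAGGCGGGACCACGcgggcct
The same display for ERSE-II shows the shorter element of 3 genes, with the strand on which it reads ATTGG first:
HERPUD1: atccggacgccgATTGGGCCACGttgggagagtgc
HYOU1, first site: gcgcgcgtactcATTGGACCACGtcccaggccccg
HYOU1, second site: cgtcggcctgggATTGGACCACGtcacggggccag
SDF2L1: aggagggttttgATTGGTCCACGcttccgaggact

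With their flanks included, the HSP90B1 windows span chr12:103930204-103930246 and chr12:103930309-103930351, that of CALR chr19:12938372-12938414 and that of XBP1 chr22:28800591-28800633. The HERPUD1 window spans chr16:56932013-56932047 and the HYOU1 windows chr11:119057262-119057296 and chr11:119057368-119057402. Each of these elements begins 12 bases inside its window. All 14 sites lay before the start drawn in the plot of element positions. CANX has other RefSeq starts, and from 1 of them its site runs from position -9 to 10.

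**Figure D1:**
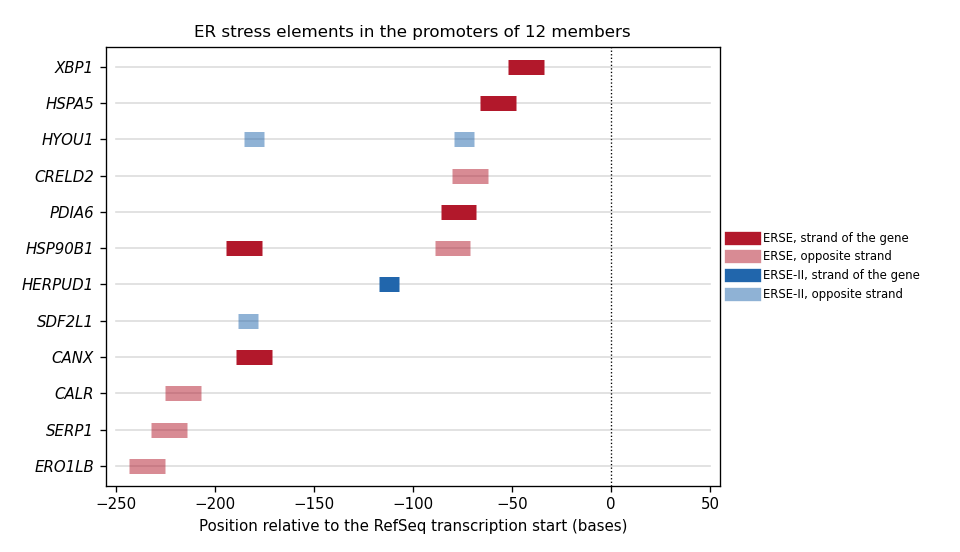
Position of each ERSE (red) and ERSE-II (blue) in the promoters of 12 genes, in bases from the RefSeq transcription start, with pale bars for the strand opposite to the gene. The site of XBP1 runs from position -52 to -34, that of HSPA5 from -66 to -48 and that of CANX, at the start drawn, from -189 to -171.

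Levels are given as FPKM, computed here from the deposited counts per kilobase of merged exons and scaled to the total on genes. CALR, the lectin chaperone calreticulin, was highest of the 38 genes in all 8 libraries, from 284.6 to 1126 FPKM. HSPA5 ranked second or sixth, and CANX, PDIA4 and PDIA6 lay within the first 10 everywhere. The genes of the sensors ERN1 and EIF2AK3, with ERO1LB and DERL3, stayed under 2 FPKM. XBP1 ranked second in MDA-MB468 control cells and seventeenth in BT549 CE control cells. This order rests on merged exons, which include exons of rare isoforms and lower the FPKM of genes that have many. Together the 38 genes took 0.715% of all counts in MDA-MB468 parental control cells (95% Wilson interval 0.713% to 0.717%) and 0.744% (0.742% to 0.747%) in BT549 parental control cells. The share was 1.32% in BT549 CE control cells and 1.78% after Acetalax, and stayed between 0.71% and 0.841% in the other 6 libraries. Intervals here cover counting error only.

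The first question was which of these genes moved within 6 hours of Acetalax. In the 4 backgrounds, HSPA5, DNAJC3 and MANF were higher in treated than in control cells each time, while XBP1 and HERPUD1 went opposite ways in the 2 lines. The score of a gene was the treated minus the control value of log2(FPKM + 1), and a score of at least 0.5 in size, about 1.41-fold for a well-expressed gene, was counted. In MDA-MB468 parental cells 7 of the 38 genes were higher, against 7.66% of the 14030 genes that averaged 1 CPM or more, and 1 was lower (8.15%). In MDA-MB468 CE cells 8 were higher (4.25%) and 1 lower (4.24%). In BT549 parental cells 3 were higher (3.33%) and 0 lower (5.17%). In BT549 CE cells 10 were higher (7.05%) and 0 lower (16.2%). The median score of the 38 genes was 0.13, 0.10, 0.09 and 0.15 in these backgrounds, beside -0.06, -0.03, -0.05 and -0.10 for all genes. Scaling by the trimmed mean of M values (TMM) moved the median of all genes in BT549 CE cells from -0.10 to 0.00, and that of the 38 genes to 0.36.

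**Figure D2:**
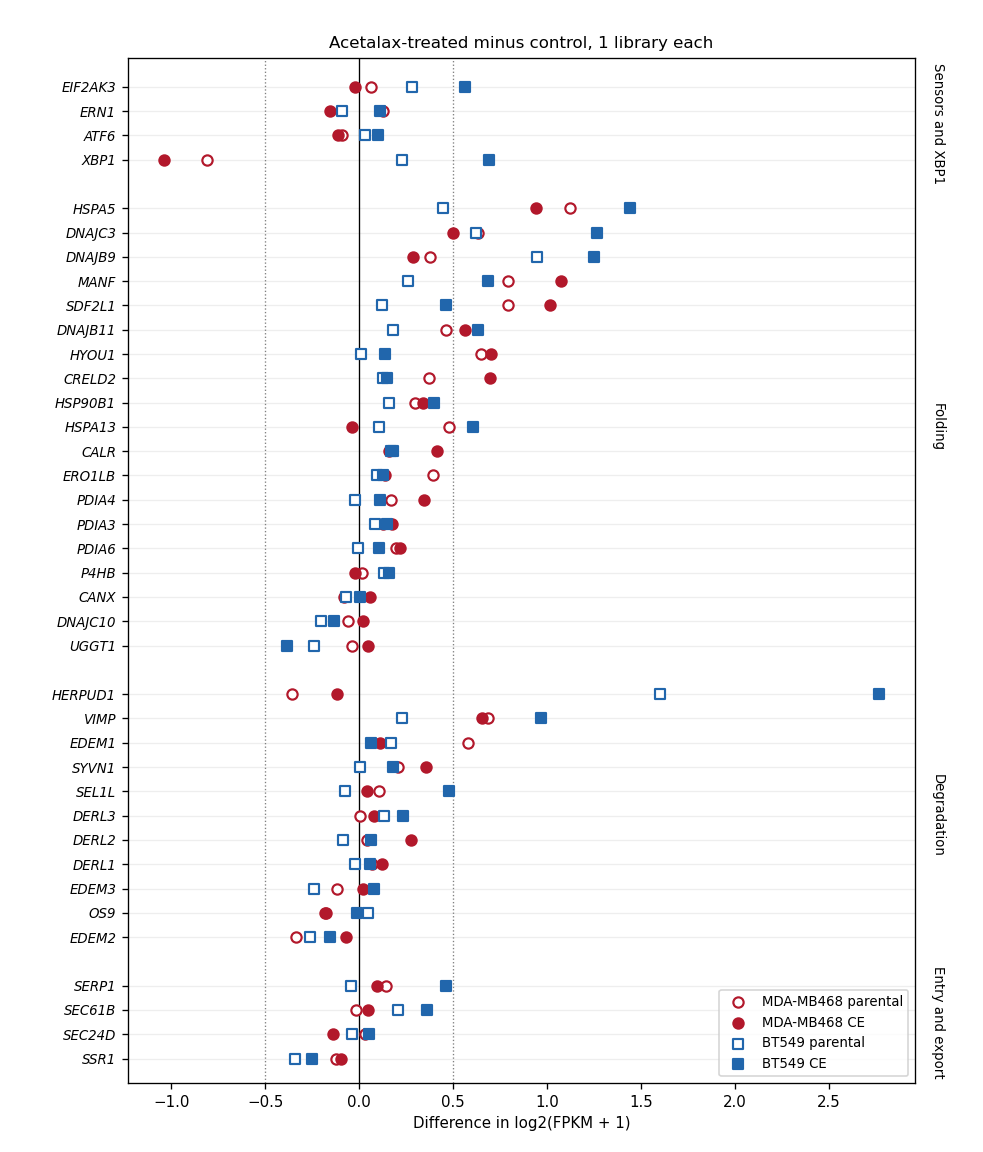
Treated minus control difference in log2(FPKM + 1) for each of the 38 genes, grouped by role, with red circles for MDA-MB468, blue squares for BT549, open symbols for parental and filled for CE cells. Dotted lines mark differences of 0.5, and each symbol compares 1 library with 1 library. HERPUD1 reached 2.77 in BT549 CE cells and XBP1 fell to -1.04 in MDA-MB468 CE cells.

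The folding genes held most of the rises. HSPA5 (ENSG00000044574, chromosome 9 of hg19, 127997132 to 128003609, minus strand) encodes BiP, the main ER chaperone of the HSP70 family. In MDA-MB468 it had 74.2 FPKM in parental control and 163 in treated cells, and 78.0 and 151 in CE cells. In BT549 it had 151 and 206 FPKM in parental cells, and 224 and 610.2 in CE cells. Every treated library was thus above its own control. The largest score, 1.44 (counting interval 1.43 to 1.46), was in BT549 CE cells, and the smallest, 0.45 (0.43 to 0.47), in BT549 parental cells. These 2 values compare single libraries, and their difference within BT549 has no replicate check.

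**Figure D3:**
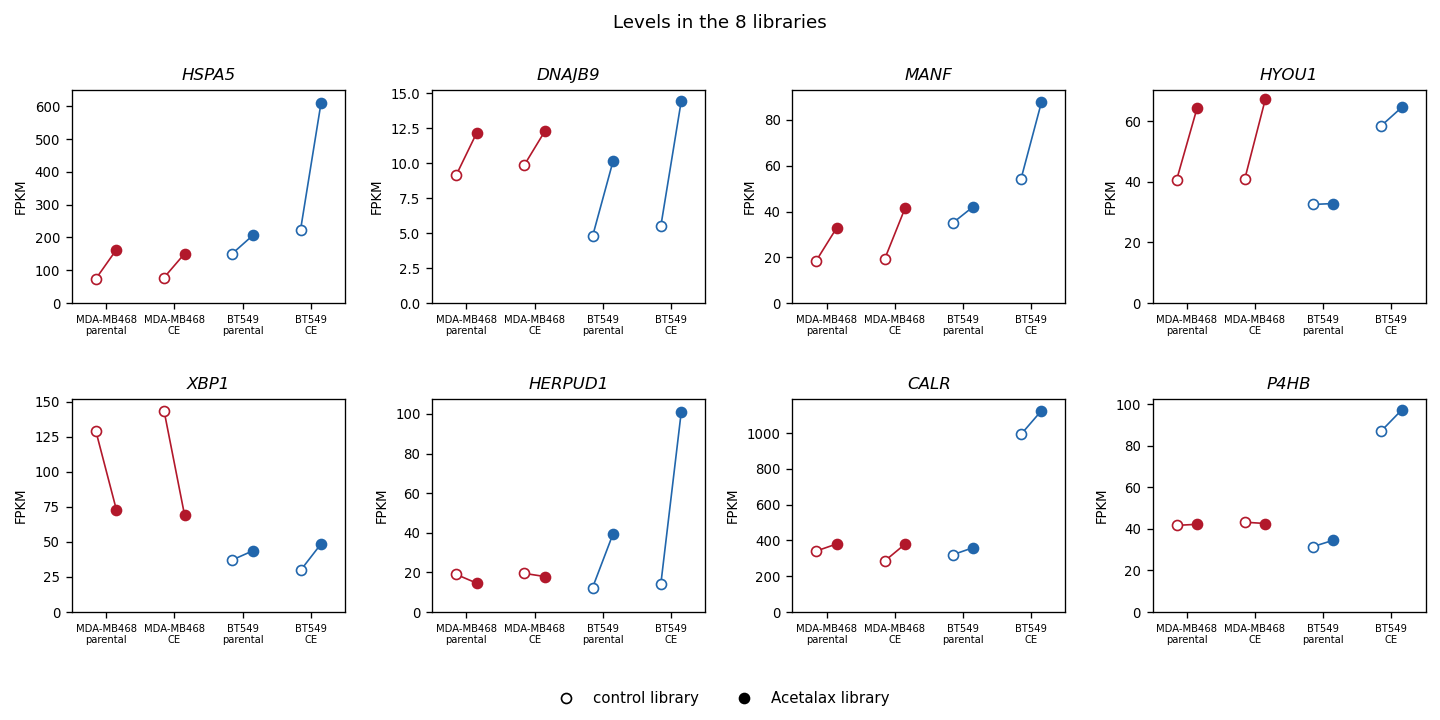
FPKM of 8 genes in the 8 libraries, on linear axes from 0, with open points for control and filled points for Acetalax libraries joined within a background. HSPA5 rises in all 4 backgrounds, XBP1 falls in MDA-MB468 and HERPUD1 rises in BT549, while CALR and P4HB are set apart by the BT549 CE libraries.

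DNAJC3 (P58IPK) and DNAJB9 (ERdj4) are J-domain partners that deliver clients to BiP. In MDA-MB468, DNAJC3 went from 14.7 to 23.3 FPKM in parental cells and from 15.9 to 23.0 in CE cells. In BT549 it went from 16.0 to 25.2 and from 19.0 to 47.0 FPKM. DNAJC3 was the only one of the 38 with a score of at least 0.5 in all 4 backgrounds. DNAJB9 went from 9.13 to 12.2 and from 9.87 to 12.3 FPKM in MDA-MB468, and from 4.77 to 10.1 and from 5.48 to 14.5 FPKM in BT549. The scores were 0.38 and 0.29 in MDA-MB468 and 0.95 and 1.25 in BT549, and both BT549 controls lay below both MDA-MB468 controls. DNAJB11 (ERdj3), a further partner of BiP, had scores of 0.46, 0.56, 0.18 and 0.64, and HSPA13, an HSP70 of the ER membrane, reached 0.60 in BT549 CE cells alone.

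MANF, a secreted factor that binds BiP, and SDF2L1, a partner of ERdj3, were higher in every treated library, with the larger scores in MDA-MB468, a difference between lines that did not pass the test (edgeR adjusted p = 0.347 and 0.219). In MDA-MB468, MANF went from 18.6 to 32.9 FPKM in parental and from 19.1 to 41.4 in CE cells. In BT549 it went from 35.0 to 42.1 and from 54.2 to 87.8 FPKM. Its BT549 control libraries already exceeded both MDA-MB468 controls. SDF2L1 went from 31.8 to 55.8 and from 34.9 to 71.5 FPKM in MDA-MB468, and from 30.4 to 33.2 and from 45.1 to 62.4 in BT549. HYOU1 (GRP170), a nucleotide exchange factor of BiP, had scores of 0.65 and 0.70 in MDA-MB468, from 40.6 to 64.2 and from 40.9 to 67.1 FPKM. Its scores in BT549 were 0.01 and 0.14. The BT549 minus MDA-MB468 difference did not pass the test (-0.557, SE 0.135, edgeR adjusted p = 0.0929). The disulfide isomerases PDIA4, PDIA6 and P4HB and the lectin chaperones CALR and CANX had scores between -0.08 and 0.41 in all 4 backgrounds.

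HSP90B1 (GRP94), the ER member of the HSP90 family, moved little but alike. Its scores were 0.30, 0.34, 0.16 and 0.40, from 45.1 to 55.6 and from 45.5 to 57.9 FPKM in MDA-MB468 and from 51.6 to 57.7 and from 110.2 to 145 FPKM in BT549.

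Among the sensors, XBP1 (ENSG00000100219, chromosome 22, 29190543 to 29196585, minus strand), whose spliced form is the transcription factor made by IRE1, separated the lines. In MDA-MB468 it went from 129 to 73.0 FPKM in parental cells and from 143 to 69.1 in CE cells. In BT549 it went from 37.1 to 43.6 and from 29.7 to 48.5 FPKM. Both MDA-MB468 scores were negative (-0.81 and -1.04) and both BT549 scores positive (0.23 and 0.69). EIF2AK3, which encodes PERK, went from 1.05 to 1.14 and from 1.03 to 1.00 FPKM in MDA-MB468, and from 0.567 to 0.907 and from 0.880 to 1.78 FPKM in BT549. At such levels the added 1 shrinks the score, which was 0.28 and 0.56 in BT549. ATF6 lay between 4.28 and 6.29 FPKM and ERN1 between 0.461 and 0.920 FPKM over all libraries, and their scores lay between -0.15 and 0.13.

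Of the degradation genes, HERPUD1 (ENSG00000051108, chromosome 16, 56965960 to 56977798, plus strand) moved furthest. It encodes HERP, a membrane protein that organises the ligase complex of ER-associated degradation. In BT549 it went from 12.3 to 39.4 FPKM in parental cells and from 14.0 to 101 in CE cells. In MDA-MB468 it went from 19.0 to 14.6 and from 19.5 to 17.9 FPKM. Both treated BT549 libraries were above all 6 others. VIMP (now SELENOS), a selenoprotein of the retrotranslocation complex, went from 10.6 to 17.7 and from 9.79 to 16.0 FPKM in MDA-MB468, and from 9.16 to 10.9 and from 9.09 to 18.7 in BT549. VIMP was thus higher in every treated library. Of the other 9 degradation genes, EDEM1, which helps pull misfolded glycoproteins out of folding, reached 0.5 in 1 background (0.58, MDA-MB468 parental cells), and the others had scores from -0.34 to 0.48. The 4 entry and export genes, SEC61B, SSR1, SERP1 and SEC24D, had 0 scores of at least 0.5 in any background. This depended on the scaling. With TMM, SERP1 was at 0.675, SEC61B at 0.572 and the degradation gene SEL1L at 0.679 in BT549 CE cells.

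With the 4 backgrounds as replicates, the pairs were put through the quasi-likelihood test of edgeR, with p-values adjusted by Benjamini-Hochberg over 19693 genes. Acetalax raised 7 of the 38 genes (2.72% of all genes tested were called higher) and lowered 0 (2.27%). Of the 7, 6 were folding genes, namely HSPA5, MANF, DNAJC3, DNAJB11, HSP90B1 and SDF2L1, and the seventh was VIMP. The log2 fold change was 1.09 (SE 0.16, edgeR adjusted p = 0.0313) for HSPA5, 0.88 (SE 0.15, adjusted p = 0.0373) for DNAJC3, 0.82 (SE 0.14, adjusted p = 0.0367) for MANF and 0.39 (SE 0.08, adjusted p = 0.0431) for HSP90B1. XBP1 and HERPUD1 did not pass, with -0.15 (SE 0.29) and 1.07 (SE 0.54). DNAJB9 had 0.89 (SE 0.21, adjusted p = 0.0539). At an unadjusted p under 0.05 there were 20 of the 38 genes, all higher, beside 28% of all genes tested in either direction. The 4 backgrounds are 2 lines with a CE clone each, so the test treats related cells as independent. Leaving out the MDA-MB468 parental pair left 0 of the 38 genes called, leaving out either CE pair left 2, and leaving out the BT549 parental pair left 5.

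Tested apart with the 2 lines as replicates, Acetalax changed 0 of the 38 genes in parental cells and 0 in CE cells (edgeR called 0.0% of genes in both, with 1710 and 2311 genes at an unadjusted p under 0.05, of which 8 and 14 were among the 38). DESeq2 called 75 genes in parental and 289 in CE cells, with 0 and 5 of the 38. The difference between CE and parental responses was called for 0 genes by edgeR and 0 by DESeq2 (edgeR 0.0%, with 91 genes at an unadjusted p under 0.05 and 0 of the 38). A different response of CE cells was thus not detectable in this design.

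Within each line, with its parental and CE pairs as the replicates, 9 genes passed in MDA-MB468 and 11 in BT549. In MDA-MB468, 8 rose (4.23% of genes tested), all of them folding genes, and 1 fell (2.41%). The rises were HSPA5 with a log2 fold change of 1.11, MANF with 1.04, SDF2L1 with 0.99, HYOU1 with 0.75, DNAJB11 with 0.68, CRELD2, an isomerase-like protein, with 0.64, HSP90B1 with 0.39 and CALR with 0.35. XBP1 fell by 0.87 (SE 0.14, edgeR adjusted p = 0.0165). In BT549, 11 rose (5.72%) and 0 fell (7.27%). HERPUD1 led with 2.39 (SE 0.27, edgeR adjusted p = 0.0123), followed by DNAJB9 with 1.36, DNAJC3 with 1.10, HSPA5 with 1.07, EIF2AK3 with 0.97, ERO1LB, an oxidase that recharges disulfide isomerases, with 0.93, VIMP with 0.77, MANF with 0.60, XBP1 with 0.59, DNAJB11 with 0.58 and HSP90B1 with 0.40. HSPA5, MANF, DNAJB11 and HSP90B1 passed in both lines. With DESeq2's size factors in edgeR, CALR and HSP90B1 no longer passed in MDA-MB468, nor DNAJB11 in BT549. DESeq2 itself did not call CALR in MDA-MB468, nor HSP90B1 in either line.

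**Figure D4:**
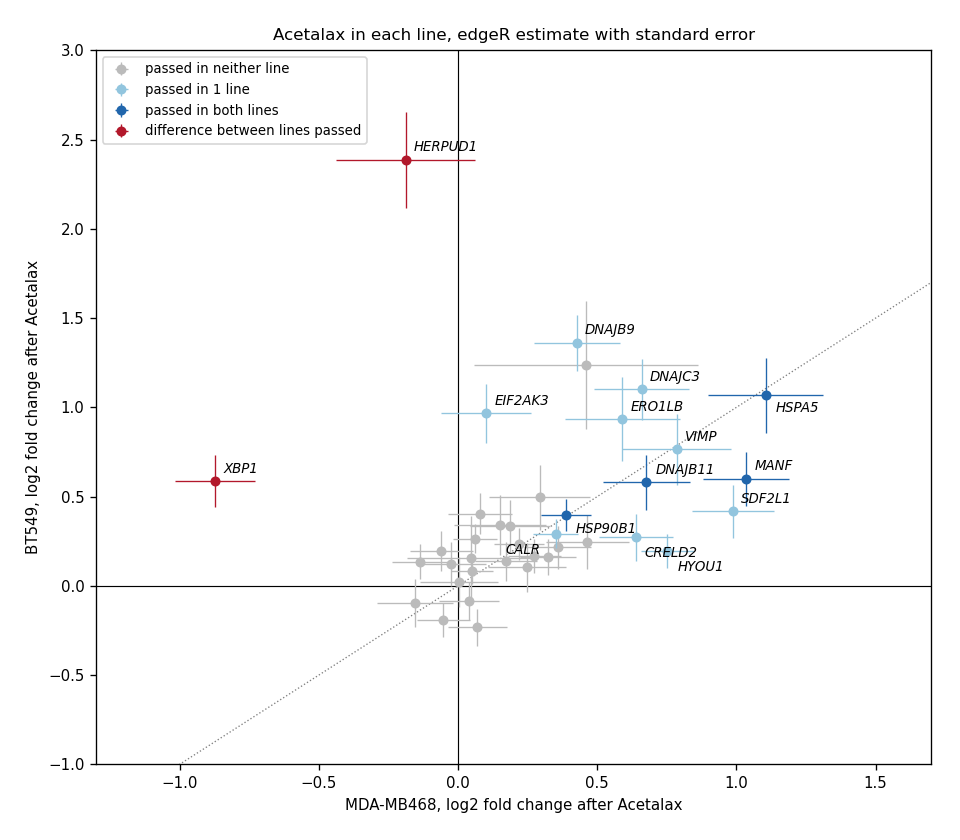
edgeR log2 fold change after Acetalax in MDA-MB468 (x axis) and BT549 (y axis) for the 38 genes, with bars of 1 standard error and a dotted line of equal change. HSPA5 lies near the line of equal change, at 1.11 and 1.07, and the 2 red points, XBP1 and HERPUD1, are those whose difference between lines passed the test.

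The difference between the lines was itself tested, and passed for 2 of the 38 genes, both higher in BT549 (0.533% of genes tested were called higher), while 0 were lower (1.25%). For HERPUD1 it was 2.58 on the log2 scale (SE 0.36, edgeR adjusted p = 0.0304) and for XBP1 it was 1.46 (SE 0.20, edgeR adjusted p = 0.0296). DNAJB9 (0.93, SE 0.22) and EIF2AK3 (0.87, SE 0.23) did not pass, with adjusted p = 0.0863 and adjusted p = 0.116 from edgeR. For HSPA5 the difference was -0.04 (SE 0.29). The fit pools over both lines the spread between the parental and CE pairs of a line, and these p-values measure that spread only. Parental and CE cells of a line share their origin, so their pairs are not independent.

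Other genes of the pathway were read from 6 lists that hold 93 genes. In the edgeR test over the 4 backgrounds, 2 of them rose (2.72% of all genes tested were called higher) and 0 fell (2.27%). The number of rises was thus near the share over all genes. PPP1R15A (GADD34), which reverses the translation block set by PERK, rose by 1.62 on the log2 scale (SE 0.35, adjusted p = 0.0451), from 13.4 to 104 and from 14.6 to 24.5 FPKM in MDA-MB468 and from 40.8 to 69.8 and from 20.7 to 67.1 in BT549. SRPR, the receptor of the signal recognition particle at the ER, rose by 0.62 (SE 0.12, adjusted p = 0.0384). In the ATF4 arm, 4 of 8 genes passed in BT549, all higher (ASNS, ATF3, ATF4 and CHAC1), against 5.72% of all genes tested. In MDA-MB468, 0 of 8 passed (4.23% of all genes higher and 2.41% lower). ATF3, a stress-induced transcription factor, went from 7.98 to 31.0 and from 5.73 to 32.8 FPKM in BT549, and from 5.19 to 6.99 and from 5.17 to 3.86 in MDA-MB468. The difference between lines passed for ATF3 (2.28, SE 0.32), CHAC1 (2.43, SE 0.35), a glutathione-degrading target of ATF4, and ASNS (2.69, SE 0.51), asparagine synthetase, with edgeR adjusted p = 0.0296, 0.0339 and 0.0491. DDIT3 (CHOP) had scores of -0.56 and -0.47 in MDA-MB468 and of 0.16 and 0.83 in BT549. In MDA-MB468, CHAC1 had scores of -0.99 and -0.84, and TRIB3, another gene of this arm, of -0.86 and -0.95. TRIB3 was at -0.63 in BT549 parental and 1.06 in BT549 CE cells. Of the 8 genes, 4 had a positive edgeR fold change in MDA-MB468.

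In the other lists few genes passed. Of all genes tested, 4.23% were called higher and 2.41% lower in MDA-MB468, and 5.72% and 7.27% in BT549. Of 25 further folding genes, 2 rose in MDA-MB468 (ERO1L and QSOX1, both oxidases of disulfide bonds) and 1 fell in BT549 (CNPY2). Of 18 further degradation genes, 3 rose in BT549 (AUP1, FAF2 and UFD1L) and 1 fell (NGLY1). Of 21 genes of translocation, SSR3 rose in MDA-MB468 and SRPR in BT549. Of 9 ER transcription factors and their proteases, CREB3L1 and MBTPS1 fell in MDA-MB468 and NFYC rose in BT549. CREB3L1 was near the floor in MDA-MB468, with 73 and 10 counts in parental control and treated cells, and 20 and 1 in CE cells. Of the cytosolic chaperones, 10 of the 12 on the list were tested, and HSPA8 (-0.92) and DNAJB1 fell in BT549. HSPA8, the constitutive HSP70 of the cytosol, went from 544 to 336 and from 470.4 to 180.2 FPKM there while HSPA5 rose.

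A number of these genes kept 1 sign over all 4 scores without passing the test over the backgrounds. Only some are named below. MBTPS1, the protease that makes the first cut of ATF6, had scores from -0.49 to -0.20, ATF6B, the paralogue of ATF6, from -0.37 to -0.08, and MBTPS2, which makes the second cut, from -0.41 to -0.02. Of the degradation list, AUP1 had scores from 0.19 to 0.45, FAM8A1 from -0.53 to -0.20 and MAN1B1 from -0.44 to -0.17. Of the folding and translocation lists, PPIB had 0.09 to 0.27, RPN1 0.08 to 0.23, FKBP7 -0.23 to -0.11, TMX3 -0.23 to -0.13 and SPCS1 -0.18 to -0.04. The cytosolic CCT5 had 0.04 to 0.23. With TMM scaling, MBTPS2 was at 0.056 in MDA-MB468 CE cells, and TMX3 and SPCS1 were at 0.075 and 0.164 in BT549 CE cells. Their single sign thus depended on the scaling.

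Among the cell type markers, KRT8 (-0.47) and KRT18 (-0.62) fell with Acetalax in BT549, VIM rose in MDA-MB468 (0.79) and ERBB2 fell in both lines. Their part in the changes of the 38 genes was not tested.

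The second question was how CE cells differed from parental cells without drug. In BT549 the CE control library was higher by at least 0.5 for 15 of the 38 genes (10.7% of all genes) and lower for 0 (10.4%), with a median difference of 0.29 beside -0.01 for all genes. In MDA-MB468 it was higher for 1 gene, EDEM1 (0.53), against 3.17% of all genes, and lower for 0 (2.7%), with a median of 0.05 beside 0.02. Of the 15 in BT549, 11 were folding genes, 3 degradation genes and 1 an export gene.

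The largest differences in BT549 were in calreticulin and the disulfide isomerases. CALR (ENSG00000179218, chromosome 19, 13049392 to 13055303, plus strand) had 320.2 FPKM in parental control and 994 in CE control cells, and 360.0 and 1126 after Acetalax. In MDA-MB468 it had 341 and 285 FPKM, and 381 and 379.5 after Acetalax. The 2 BT549 CE libraries were far above the other 6. PDIA4 (ERp72) had 68.9 and 195 FPKM in BT549 controls, P4HB (PDI) 31.4 and 87.0, and PDIA6 (P5) 36.7 and 80.2. After Acetalax these were 67.7 and 210.8, 34.5 and 97.2, and 36.6 and 86.2 FPKM. In MDA-MB468 the 4 libraries lay between 67.8 and 98.9 FPKM for PDIA4, 41.7 and 43.2 for P4HB, and 82.1 and 102 for PDIA6.

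HSP90B1 had 51.6 and 110.2 FPKM in parental and CE controls of BT549 and 45.1 and 45.5 in those of MDA-MB468. HYOU1 had 32.5 and 58.4 FPKM in BT549 and 40.6 and 40.9 in MDA-MB468. HSPA5 had 151 and 224 FPKM in BT549 and 74.2 and 78.0 in MDA-MB468. As a difference of log2(FPKM + 1), its BT549 value of 0.56 was below those of HSP90B1 (1.08) and HYOU1 (0.83). SEC24D, a cargo adaptor of COPII vesicles that leave the ER, was 1 of several genes whose differences had opposite signs in the 2 lines. It had 6.56 and 15.2 FPKM in BT549 and 2.78 and 1.83 in MDA-MB468, differences of 1.10 and -0.42. Those of SSR1, a subunit of the translocon-associated complex, were 0.48 and -0.29, and those of CALR 1.63 and -0.26. XBP1 had 37.1 and 29.7 FPKM in BT549, a difference of -0.31, and HSPA13 was at -0.25 there. HERPUD1 differed by 0.17 in BT549 controls and by 1.33 in the Acetalax libraries, VIMP by -0.01 and 0.73, and HSPA5 by 0.56 and 1.56.

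**Figure D5:**
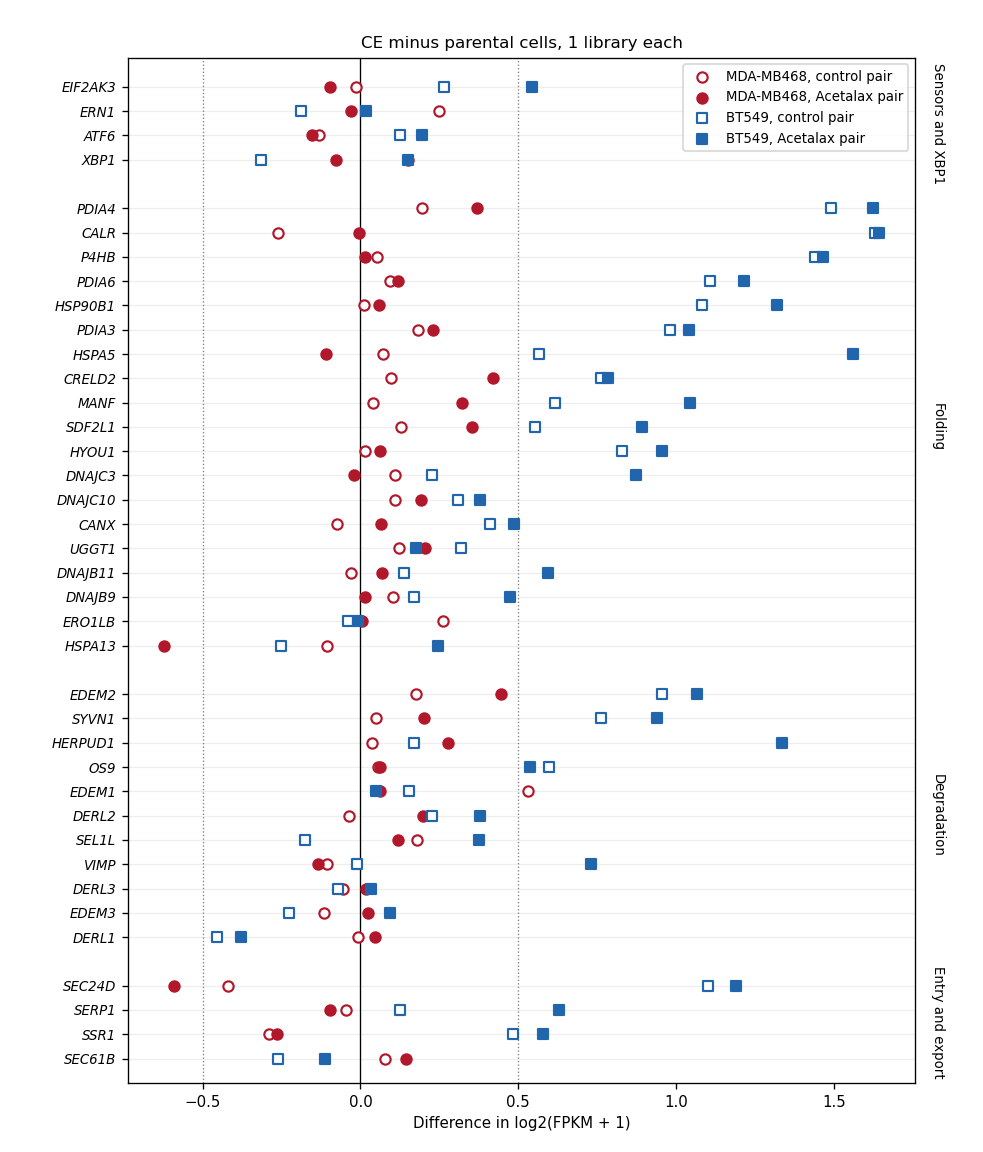
CE minus parental difference in log2(FPKM + 1) for each of the 38 genes, with red circles for MDA-MB468, blue squares for BT549, open symbols for the control pair and filled for the Acetalax pair, and dotted lines at 0.5 in size. PDIA4, CALR and P4HB lie between 1.44 and 1.64 in both BT549 pairs, and within 0.37 of 0 in MDA-MB468.

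Tested over both lines in the 4 control libraries, with the lines as replicates and 1 residual degree of freedom, edgeR called 0 of 18377 genes (0.0%), with 610 genes at an unadjusted p under 0.05 and 0 of the 38 among them. DESeq2 called 46 genes and edgeR without a filter 45, with 0 of the 38 in each. A fit chosen after these values had been seen used all 8 libraries, with the control pair and the Acetalax pair of a line as its replicates. Its CE term averages both pairs and so is not the difference without drug. HERPUD1, called in BT549, differed by only 0.17 in the controls. In BT549 this fit called 23 of the 38 genes higher (12.3% of genes tested) and 0 lower (10.1%). The 23 were 15 of 19 folding genes, 4 of 11 degradation genes, 3 of 4 entry and export genes and 1 of 4 sensor genes. CALR had a log2 fold change of 1.73 (SE 0.08, edgeR adjusted p = 1.23e-05), PDIA4 of 1.66 (SE 0.10), P4HB of 1.57 (SE 0.08), SEC24D of 1.35 (SE 0.12), HSP90B1 of 1.31 (SE 0.09), PDIA6 of 1.27 (SE 0.10), HSPA5 of 1.16 (SE 0.21) and HYOU1 of 1.00 (SE 0.10). The degradation genes were EDEM2 with 1.14, SYVN1, the ligase HRD1, with 1.01, HERPUD1 with 0.87 and OS9, a lectin of the ligase complex, with 0.68. In MDA-MB468, 0 were higher (1.88%) and 1 was lower (2.53%), SEC24D with -0.78 (SE 0.13, edgeR adjusted p = 0.0157).

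The difference between the lines in this fit passed for 16 of the 38 genes, all higher in BT549 (7.3% of genes tested), and 0 were lower (4.91%). It was 2.13 (SE 0.18) for SEC24D, 1.90 (SE 0.12) for CALR, 1.58 (SE 0.11) for P4HB, 1.42 (SE 0.14) for PDIA4 and 1.22 (SE 0.29) for HSPA5. A single CE term over both lines called 0 of the 38 genes, 9 of them (all higher) with an unadjusted p under 0.05, beside 14.8% of all genes tested in either direction. The p-values of this fit measure the spread between the control and Acetalax pairs of a line, pooled over both lines. Each line has 1 clone, so they say nothing of other clones. PDIA6, OS9 and DERL3 overlap exons of genes on the opposite strand over 25.2%, 16.6% and 77.0% of their exons, and the strand counted is not stated.

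Further genes of the pathway moved with them in BT549 CE cells. In the same fit, 15 of 25 further folding genes were higher and 0 lower, and 15 of 21 translocation genes were higher and 0 lower, against 0 and 0 of these lists in MDA-MB468. Of all genes tested, it called 12.3% higher and 10.1% lower in BT549, and 1.88% and 2.53% in MDA-MB468. PPIB, a proline isomerase of the ER, had 15.3 and 38.9 FPKM in BT549 controls and rose by 1.36 (SE 0.11), PDIA5 rose by 1.63 (SE 0.13), and RPN1, a subunit of the enzyme that adds N-glycans, rose by 0.77 (SE 0.09). Further degradation genes were mixed, with 3 of 18 higher and 1 lower. Of 10 cytosolic chaperones, 1 was higher (HSPB1, 1.13) and 5 were lower, with HSP90AA1, the inducible cytosolic HSP90, at -1.15 (SE 0.08). In the ATF4 arm, DDIT3 was higher (0.71) and ATF4 lower (-0.44). In the BT549 control pair alone, 0 of the 8 genes of this arm were higher by at least 0.5 (10.7% of all genes). There 4 were lower (10.4%), the median was -0.54, and DDIT3 was at 0.25. The tests named here are edgeR's with Benjamini-Hochberg adjustment.

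Markers of cell state moved in the same comparison. In BT549 CE cells 3 of the 5 epithelial markers were higher and 1 lower, and their sum went from 8.68 to 83.4 CPM in control cells, with KRT8 at 1.25 CPM in parental and 34.4 CPM in CE controls, against 2276 CPM in MDA-MB468. Of the 4 mesenchymal markers, SPARC was higher, at 439 and 3447 CPM, and FN1 and VIM were lower. SPARC encodes a protein secreted into the matrix. None of these 9 markers was at 0 in any library. Their part in the chaperone differences was not tested.

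The genes with a promoter element were compared with those without one as a description. With Acetalax, the median score of the 12 genes that hold an ERSE or ERSE-II was 0.25, 0.28, 0.12 and 0.29 in MDA-MB468 parental, MDA-MB468 CE, BT549 parental and BT549 CE cells. The 22 matched genes without one had medians of 0.08, 0.04, 0.04 and 0.13. The 12 genes ranged from -1.04 (XBP1, whose window is shown above) to 2.77 (HERPUD1). In CE against parental controls the medians were 0.56 and 0.23 in BT549 and 0.05 and 0.05 in MDA-MB468. DNAJC3, DNAJB9, MANF and PDIA4, which rose in tests above, hold neither motif in these windows. The promoters of SERP1 and CRELD2 are shared with a neighbouring gene on the other strand.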

How the data were processed

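Polyadenylated RNA was sequenced by the authors, aligned to hg19 with STAR (2.7.11b in the submitters' processing notes) and counted per gene with its GeneCounts option. The deposited values are raw counts and were not normalized. Which annotation and strand column were counted is not given in the sources used here. Of 55679 identifiers, 1392 were listed more than once and were used once. The repeats of 3 differed, none of them among the 38 genes. Columns used were all mapped to samples by title.

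Merged exon lengths of an hg19 GENCODE annotation and total counts on genes gave FPKM. Scores were differences of log2(FPKM + 1), with 95% intervals from the standard error of counting in the 2 libraries. Shares of all counts had 95% Wilson intervals. Both kinds cover counting error only. Tests used edgeR 4.0.16 in R 4.3.3 (quasi-likelihood, TMM, filterByExpr, Benjamini-Hochberg, threshold 0.05) on all 8 libraries with an intercept per background, leaving 3 residual degrees of freedom for 1 Acetalax term and 2 for a term per line or per parental and CE cells. DESeq2 1.42.0 was an alternative. The tests were tried on simulated counts with known changes. Nothing says that libraries came from separate cultures, so p-values measure the spread between these samples.

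The 38 genes, the lists of other genes and the promoter motifs were chosen with earlier results of these data known. Values in all libraries were given for the sensor genes, for members with scores of at least 0.5 of 1 sign in 2 or more backgrounds, and for members whose CE difference reached 0.5 in both lines or 1 in 1 line. From each other list, the rule took the 3 genes with the largest smallest score of 1 sign over the 4 Acetalax pairs, of which only some are described. Other genes named were chosen after their values were seen.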

Additional observations from a re-analysis of the deposited data

Results flagged for a closer look

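These results were picked out because a test of the difference between the 2 lines passed (edgeR's quasi-likelihood test, Benjamini-Hochberg adjustment), and all differences are BT549 minus MDA-MB468 on the log2 scale. For the response to Acetalax they were HERPUD1 (2.58) and XBP1 (1.46) among the 38 genes, and ASNS (2.69), CHAC1 (2.43) and ATF3 (2.28) in the ATF4 arm. XBP1 went down in both MDA-MB468 pairs and up in both BT549 pairs.

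For CE against parental cells, in the fit of all 8 libraries that was chosen after the data had been seen, they were SEC24D (2.13), CALR (1.90), P4HB (1.58), PDIA4 (1.42), HSP90B1 (1.31), HSPA5 (1.22), PDIA6 (1.21), EIF2AK3 (1.04), HYOU1 (1.00), SSR1 (0.97), PDIA3 (0.96), SYVN1 (0.92), EDEM2 (0.85), CRELD2 (0.71), OS9 (0.65) and CANX (0.59). Each line is represented by 1 CE clone.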

How the results depend on the processing

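No result changed direction in a way that reversed a call under the alternatives tried. With a difference of at least 1 in place of 0.5, members higher after Acetalax numbered 1 in MDA-MB468 parental, 2 in MDA-MB468 CE, 1 in BT549 parental and 4 in BT549 CE cells, and 0 were lower in MDA-MB468 parental cells. In CE against parental controls 0 were then higher in MDA-MB468 and 6 in BT549. A pseudocount of 0.1 gave 5 higher in BT549 parental cells, and in MDA-MB468 CE against parental controls 2 higher and 1 lower, where log2(CPM + 1) gave 3 and 1 and TMM scaling 0 higher. Shares of all genes under these alternatives are not given. The counts therefore show only how the number of members moves, and not whether it exceeds that of other genes. TMM scaling moved the median in BT549 CE cells to 0.36.

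In the tests, leaving out 1 background gave 0 to 5 members and 0 to 554 genes for Acetalax over the 4 backgrounds. Without a filter on low counts, 16 members and 3585 genes were called there, 3 and 643 in parental cells, 11 and 1080 in CE cells, 5 and 1632 for the difference between lines, 3 genes for CE minus parental response, 2945 genes in MDA-MB468, 4181 in BT549 and 45 for CE against parental controls. DESeq2 called 12 members and 2684 genes over the 4 backgrounds, 75 genes in parental cells, 5 members and 289 genes in CE cells, 926 genes for the difference between lines and 46 genes for CE against parental controls. With all 8 libraries, CE against parental cells gave 1 member and 870 genes in MDA-MB468, 23 and 4410 in BT549, 16 and 2405 for their difference, and 23 genes for 1 term over both lines. The cause of these shifts was not tested. Leaving out a pair also leaves fewer libraries. The 7 members called over the 4 backgrounds were all called by DESeq2, without a filter and with DESeq2's size factors, as were the 2 of the difference between lines.

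The tests of Acetalax compare each treated library with the control of its own background. With 1 library per group, there is no replicate number to add as a block. DERL3 had at most 58 counts in a library, so its values are imprecise.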
